A study of Mus musculus with 6 samples.

Results

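The 30 genes described here encode the enzymes that build cholesterol and long-chain fatty acids, the transcription factors that switch those enzymes on, and the proteins that hold those factors in check. The rule took them by name and used no measured value, although the list was drawn up with earlier results of these data known: each row of the deposited count table whose Ensembl identifier maps in GENCODE mouse release M21 to a listed symbol was a member. All 30 listed genes were found among the 51912 gene identifiers of the table. By role, 8 belong to the mevalonate and isoprenoid steps, 11 to the steps from squalene to cholesterol, 5 to the SREBP factors and their control, 1 is a sterol carrier and 5 make or modify fatty acids.

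RNA was sequenced from 6 libraries of primary osteoblasts, the cells that lay down bone matrix, grown out of the skull caps (calvaria) of C57BL/6J mouse pups 1 d after birth. Both copies of Mark3, a serine/threonine kinase of the microtubule affinity-regulating family, carried loxP sites (Mark3 flox/flox) in every pup. In the 3 WT libraries the cells had been given a GFP adenovirus for 24 h, and in the 3 Mark3-KO libraries a Cre adenovirus for 24 h, so that WT cells also carried floxed alleles and virus. Genotype and the protein carried by the virus changed together and cannot be told apart. All cultures stood in 6-well dishes in aMEM with 10% FBS, a medium whose serum brings lipoprotein cholesterol. Whether pups were pooled, and whether replicates were separate cultures, is not stated in the labels; the p-values below therefore reflect how far these libraries differ from each other, a spread that may be technical.

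Cholesterol synthesis begins with acetyl-CoA, which is built up to mevalonate and then to isoprenoid units; these are joined to squalene, closed into a ring and trimmed to cholesterol. Fatty acid synthesis draws on the same acetyl-CoA. When sterols are scarce in the endoplasmic reticulum, Scap escorts the SREBP proteins to the Golgi, where they are cut and released to enter the nucleus, and when sterols are ample the Insig proteins hold Scap back. In bone the pathway is known above all for Fdps, the target of the nitrogen-containing bisphosphonates used against bone loss, which act mainly in osteoclasts. Osteoblasts need its products for membranes and for the prenyl anchors of small GTPases.

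Mark3 itself (ENSMUSG00000007411; GRCm38 chr12:111574523-111656221, plus strand) was measured at 113, 118 and 118 CPM (counts scaled to the TMM-adjusted size of each library) in WT replicates 1, 2 and 3, and at 47.6, 52.4 and 44.1 CPM in Mark3-KO replicates 1, 2 and 3. It fell from 116 ± 2.78 to 48.02 ± 4.14 CPM (SD, n = 3 each), or by 1.27 on the log2 scale (SE 0.10; adjusted p = 0.0153, edgeR). With WT replicate 2, Mark3-KO replicate 2 or Mark3-KO replicate 3 left out, the edgeR adjusted p for Mark3 was 0.128, 0.0798 and 0.0681, at log2 fold changes of -1.27, -1.35 and -1.22. Libraries held between 56925883 and 71445243 counts. No 2 libraries were copies: the chi-square per degree of freedom over genes with enough counts ran from 67.2 to 727 between pairs, and the closest pair was WT replicate 3 with Mark3-KO replicate 1, from opposite groups. The first principal component took 65.5% of the variance and set the libraries in the order WT 1, WT 2, WT 3, Mark3-KO 1, Mark3-KO 2, Mark3-KO 3, at -90.2, -58.7, -10.9, 15.7, 60.2 and 83.8. The 8 osteoblast markers were all detected at uneven levels, with means for WT and Mark3-KO of 13907 and 4167 CPM for Col1a1, 1178 and 1489 CPM for Spp1, and 71.2 and 57.7 CPM for Runx2. The late markers Ibsp (3.63 and 3.33 CPM) and Bglap (0.703 and 0.211 CPM) were low. Adipocyte markers, a cell type that makes much fat, summed over 8 genes to 20.1 to 24.1 CPM in WT libraries and 24.4 to 27.1 CPM in Mark3-KO ones. Of these, Lep was at 0 in all 6 libraries and Adipoq averaged 0.027 CPM (WT) and 0.042 CPM (Mark3-KO). Macrophage markers summed over 6 genes to 202 to 228 CPM (WT) and 223 to 268 CPM (Mark3-KO), most of it Lyz2. Lyz2 overlapped between the groups, and the other macrophage markers differed in direction. Ptprc and Adgre1 were higher in Mark3-KO without overlap, Csf1r and Cd68 were lower without overlap, and Cd14 overlapped. The part of the macrophage markers in the results was not tested. In bulk RNA, fewer cells of a type and less RNA per cell cannot be told apart.

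None of the 30 genes passed at 0.05 when edgeR's quasi-likelihood p-values were adjusted by the Benjamini-Hochberg method over the 19017 genes tested. Of all tested genes 0.216% passed, 0.0473% higher and 0.168% lower in Mark3-KO. All 30 passed the filter on low counts, with between 80 and 81725 counts per library. Their adjusted p ran from 0.0506 to 0.910, and 11 of the 30 lay below 0.055, where 24.8% of all tested genes lay. At an unadjusted p below 0.05 there were 4 members higher and 12 lower in Mark3-KO, beside 20.8% and 24.8% of all tested genes; at an adjusted p below 0.1 the counts were again 4 higher and 12 lower, beside 19.7% and 24% of all genes. The 3 WT and the 3 Mark3-KO libraries did not overlap in CPM for 15 lower and 4 higher members, beside 27.5% and 25.8% of all tested genes. limma-voom also called no member (0.142% of all genes). DESeq2's Wald test called 15, 3 of them higher and 12 lower, beside 36.4% of all genes, 14.6% higher and 21.7% lower. edgeR called 10 members, all lower, with scaling by library size alone (12.2% of all genes called lower) and 13 with a filter of 1 CPM in 3 libraries (37.4% of all genes called). The median log2 fold change was -0.12 over the members and 0.02 over all tested genes. Of the members 17 lay below 0, as did 48.9% of all tested genes. Summed over the members, levels were 4172 to 4405 CPM (WT) and 3774 to 3965 CPM (Mark3-KO).

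The count of members past the threshold rested on which libraries were used. Without WT replicate 3 it was 14, 11 of them lower and 3 higher, beside 20% and 12.9% of all genes. Without Mark3-KO replicate 1 it was 12, all lower, beside 20% of all genes called lower. Leaving out any of the other 4 libraries gave 0 members, and at most 0.0717% of all genes passed there.

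The members differed in direction. The 8 whose transcripts are richest in G and C (55% or more of the bases) had the lowest log2 fold changes of the 30, and the genes poor in G and C mostly had values above 0. The contrast can be read from the sequences themselves. Shown are 120 bases from the middle of the coding sequence (GENCODE M21, GRCm38) of the 2 members with the highest and the 2 with the lowest transcript GC content, 5′ to 3′, with G and C in capitals.
Srebf1: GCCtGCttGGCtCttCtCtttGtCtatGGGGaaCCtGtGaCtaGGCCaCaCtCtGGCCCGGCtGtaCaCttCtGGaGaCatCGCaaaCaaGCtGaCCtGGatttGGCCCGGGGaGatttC
Mvd: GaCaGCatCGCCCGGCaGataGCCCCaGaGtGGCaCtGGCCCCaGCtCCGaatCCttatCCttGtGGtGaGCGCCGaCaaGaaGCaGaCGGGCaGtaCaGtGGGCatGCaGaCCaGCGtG
Idi1: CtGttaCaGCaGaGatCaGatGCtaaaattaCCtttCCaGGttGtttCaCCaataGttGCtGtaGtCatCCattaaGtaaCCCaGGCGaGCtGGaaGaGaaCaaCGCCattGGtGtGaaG
Ggps1: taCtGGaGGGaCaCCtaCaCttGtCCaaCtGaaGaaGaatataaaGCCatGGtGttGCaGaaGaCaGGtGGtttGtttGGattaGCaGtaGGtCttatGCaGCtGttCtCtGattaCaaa

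The Srebf1 stretch (coding bases 1642 to 1761; gene at chr11:60199089-60222581, minus strand) is 55.8% G and C and the Mvd stretch (coding bases 541 to 660; gene at chr8:122433601-122443422, minus strand) 62.5%. Their log2 fold changes were -1.90 and -2.21, with an edgeR adjusted p of 0.0506 each. The lowest WT library lay 1.36-fold (Srebf1) and 1.65-fold (Mvd) above the highest Mark3-KO library, while the WT libraries spanned 2.92-fold and 2.495-fold. The Idi1 stretch (coding bases 364 to 483; gene at chr13:8885501-8892451, plus strand) is 44.2% G and C and the Ggps1 stretch (coding bases 391 to 510; gene at chr13:14050659-14063488, minus strand) 42.5%. These genes had log2 fold changes of 0.25 (edgeR adjusted p = 0.286, overlapping groups) and 0.54 (0.0753, no overlap). Ggps1 had the highest value of the 30 genes, and Idi1 lay among the 13 above 0.

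Across the 30 genes the log2 fold change and the transcript GC content (41.1 to 59.4%, median 49.6%) had a Pearson correlation of -0.93 and a Spearman correlation of -0.92. Over the 18965 tested genes with a GC value the same relation was -0.74 and -0.81. These are correlations across genes measured in the same 6 libraries, and genes are not independent replicates. The division into 3 classes of GC content, at 55% and 48%, was made after the values were seen. The 8 members at or above 55% were Srebf1, Mvd, Mvk, Fasn, Srebf2, Pmvk, Tm7sf2 and Scap, and all 8 were lower in Mark3-KO without overlap, as were 27.5% of all tested genes, with log2 fold changes of -2.21 to -1.21. GC-rich genes at large stood in the same order of libraries (values below), and nothing particular to these members is read from the count. Of the 10 members from 48 to 55%, 8 lay below 0 (range -0.59 to 0.06, median -0.24) and 6 were lower without overlap. Of the 12 members below 48%, 11 lay above 0 (range -0.19 to 0.54, median 0.26), and Hsd17b7 was the exception.

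**Figure D1:**
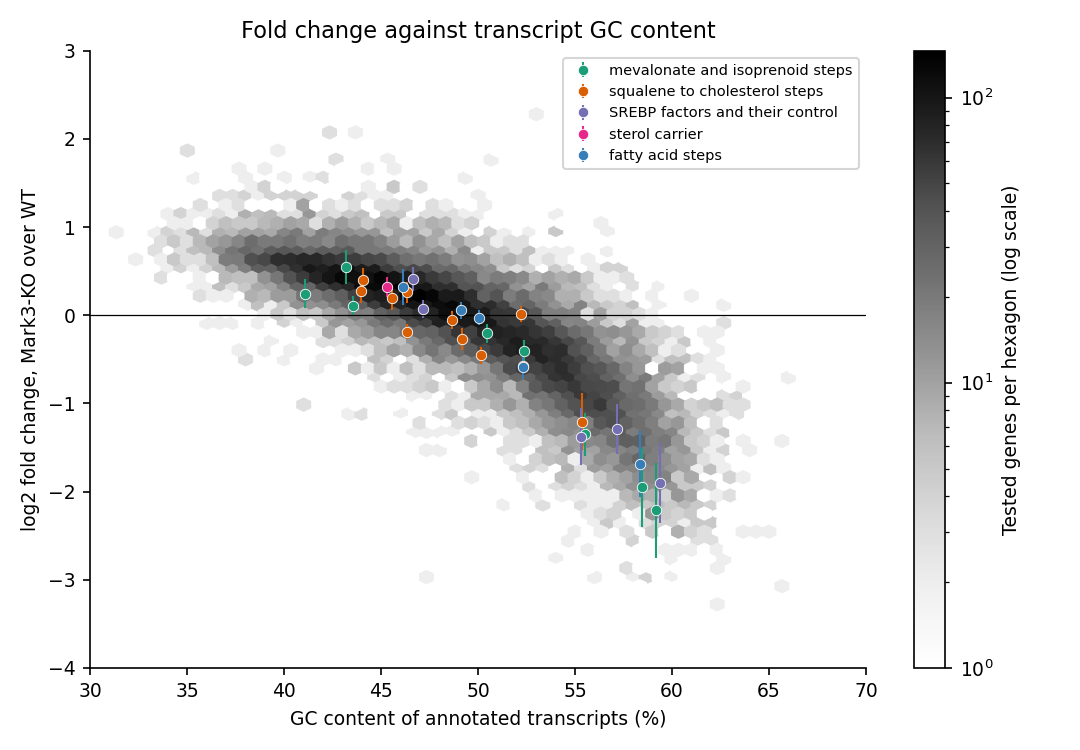
Log2 fold change (Mark3-KO over WT, y axis) against the GC content of annotated transcripts (percent, x axis). Grey hexagons count all tested genes on a log scale, coloured points are the 30 members by role, and bars are SE. The members run from Idi1 (0.25) and Ggps1 (0.54) at the AT-rich end to Mvd (-2.21) and Srebf1 (-1.90) at the GC-rich end. The members lie inside the cloud of all genes.

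The same order ran through the single libraries, within the groups as well as between them. In WT replicates 1, 2 and 3 the 8 GC-rich members lay at a median of 1.31, 0.85 and 0.16 above their own 6-library means (log2 CPM), and in Mark3-KO replicates 1, 2 and 3 at -0.25, -0.86 and -1.27. The 12 members below 48% were at -0.28, -0.17 and 0.06 in WT and at -0.00, 0.17 and 0.26 in Mark3-KO. The tenth of all tested genes with the highest GC content (57.3% or more) stood at 1.15, 0.72 and 0.11 in WT and at -0.21, -0.71 and -1.003 in Mark3-KO. The tenth with the lowest (41.5% or less) stood at -0.50, -0.31 and -0.08 and at 0.08, 0.32 and 0.54. The GC-rich members therefore stood in the same order of libraries as GC-rich genes in general. Where this order came from was not tested.

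**Figure D2:**
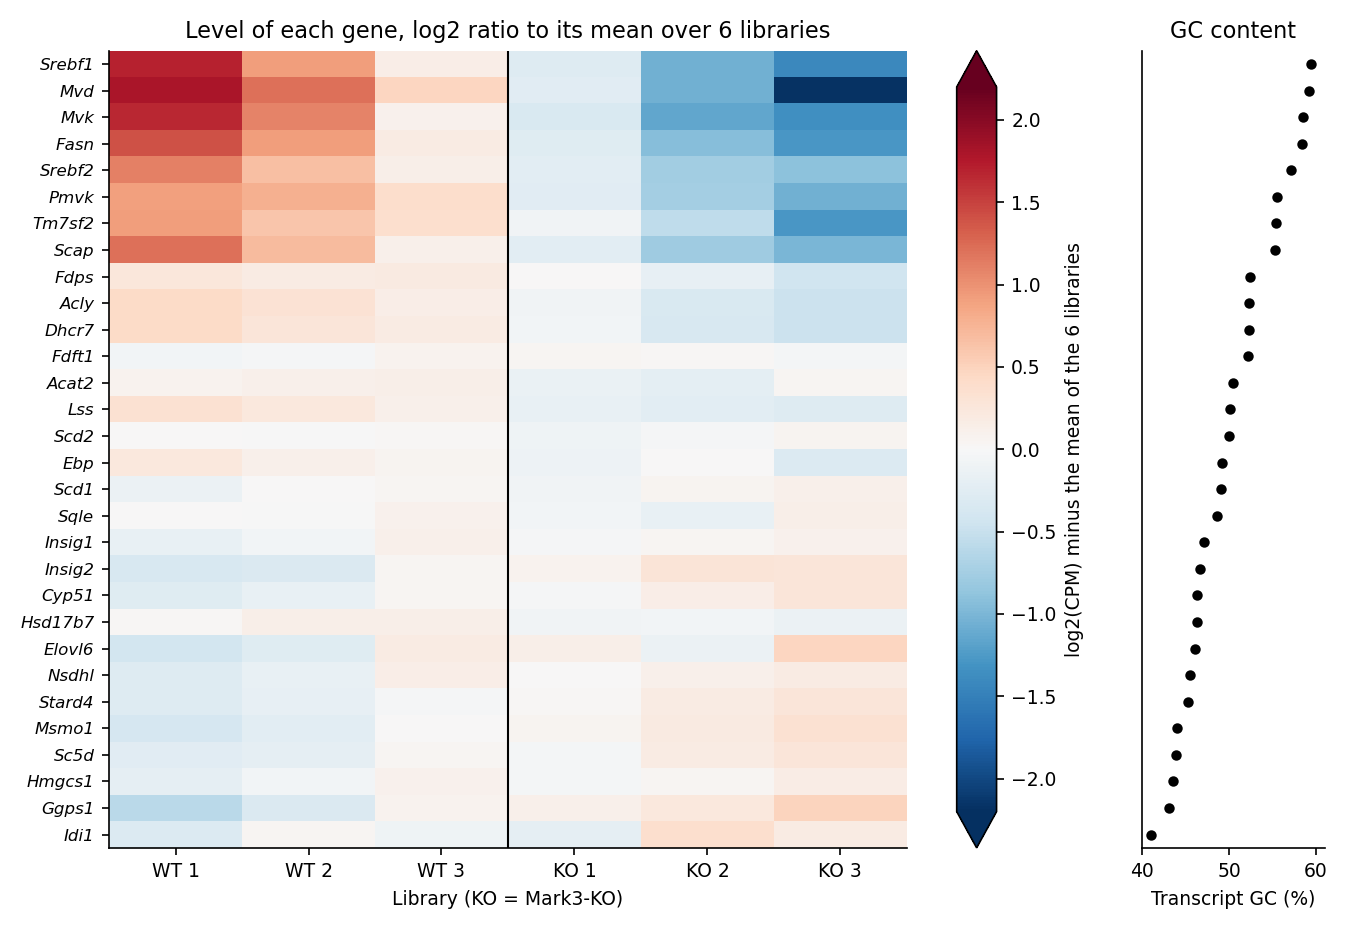
Level of each of the 30 genes in each library as log2 CPM minus its mean over the 6 libraries (colour), with genes sorted by transcript GC content, shown at the right in percent. The top 8 rows, with GC content of 55% or more, are reddest in WT 1 and bluest in Mark3-KO 3, and most of the lower rows are faintly the reverse.

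For most members that separated, the spread within WT was wider than the gap between the nearest libraries of the 2 groups. Of the 15 lower members without overlap, 12 had a larger ratio of the highest to the lowest WT library than of the lowest WT to the highest Mark3-KO library, and so did all 4 higher ones. Of the 15, 13 were highest in WT 1, 12 had their lowest WT value in WT 3, 12 their highest Mark3-KO value in Mark3-KO 1, and 14 were lowest of all in Mark3-KO 3. For Srebf1 the WT libraries spanned 2.92-fold, WT 3 lay 1.36-fold above Mark3-KO 1, and the WT mean was 3.74-fold the Mark3-KO mean. For Ggps1, among the higher members, the WT span was 1.59-fold and the Mark3-KO mean 1.46-fold the WT mean. Lower members with a gap above the WT span were Pmvk (WT span 1.43-fold, gap 1.55-fold), Lss (1.16-fold and 1.21-fold) and Fdps (1.05-fold and 1.13-fold). Their Mark3-KO libraries spanned 1.74-fold, 1.09-fold and 1.36-fold. These counts were not made over all tested genes, and nothing particular to the members is read from them.

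When the dependence on GC content was taken out of each library before the test, 0 of the 30 members passed (0.405% of all tested genes did). Of the members 22 lay below 0 and 8 above, and 48.4% of all tested genes lay below 0. The median of the members became -0.19, with a range of -0.97 to 0.31, beside 0.01 over all genes. The 8 GC-rich members stayed below 0, at -0.97 to -0.24 with a median of -0.57. The 10 middle members had a median of -0.10 and the 12 GC-poor ones a median of -0.06, with 7 below 0 in each class. Among the members the relation to GC content was still -0.63 (Pearson) and -0.54 (Spearman), while over all tested genes it was -0.02 and -0.01. This correction also removes any change that genes of like GC content shared. Mark3 was at -1.50 after it (adjusted p = 0.00331 in edgeR).

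**Figure D3:**
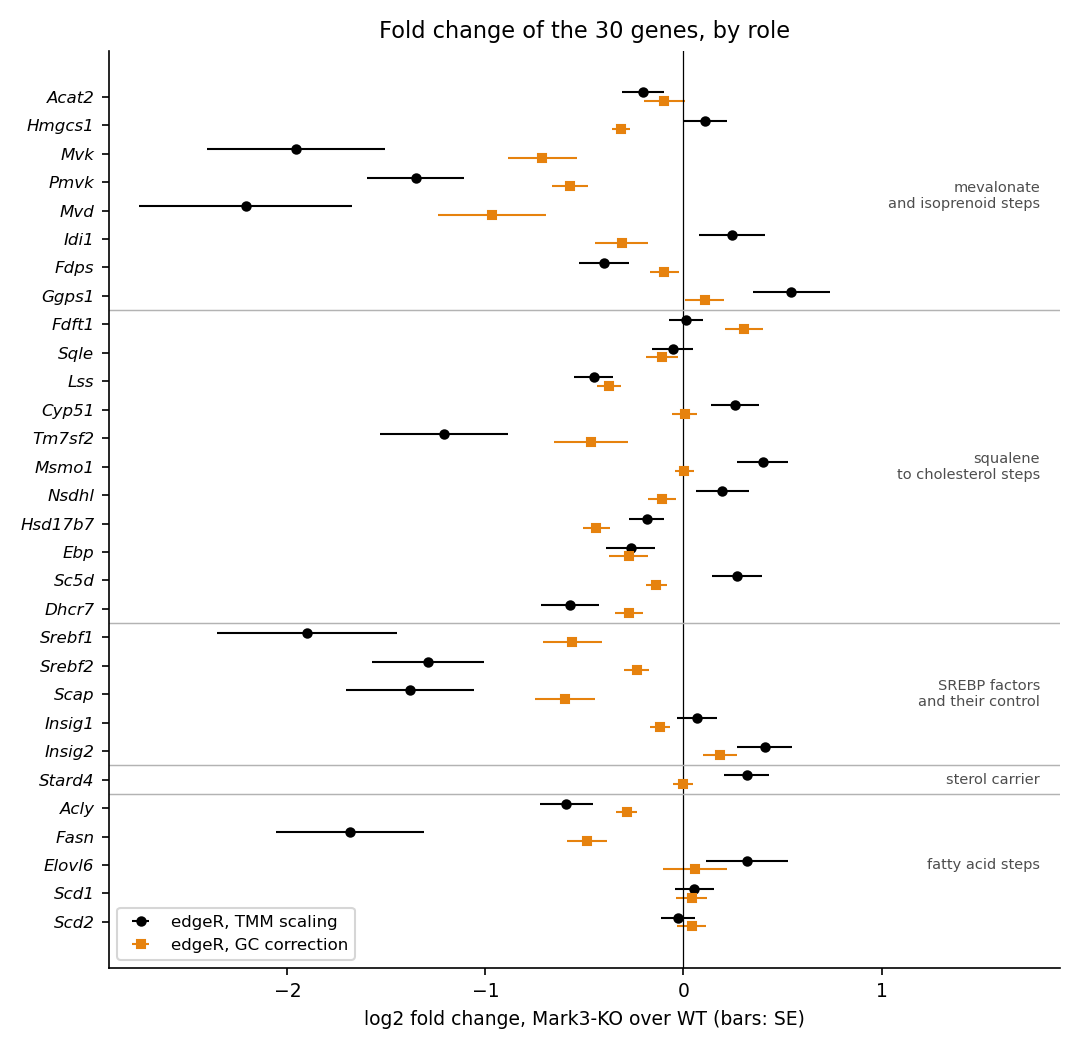
Log2 fold change (Mark3-KO over WT, x axis) of the 30 genes, grouped by role, with TMM scaling alone (black circles) and with the GC correction (orange squares); bars are SE. The 8 lowest circles, at -2.21 to -1.21, move to between -0.97 and -0.24, and 7 genes change sign.

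Among the 8 genes of the mevalonate and isoprenoid steps, none passed at 0.05. At an edgeR adjusted p below 0.1, 4 were lower and 1 higher, beside 24% and 19.7% of all tested genes. Without overlap, 5 were lower and 1 higher, beside 27.5% and 25.8% of all tested genes. The median log2 fold change was -0.30, and -0.31 after the GC correction, although single genes moved by more, the lowest upwards and Hmgcs1 and Idi1 downwards past 0. Summed levels were 721 to 761 CPM (WT) and 678 to 732 CPM (Mark3-KO). The 3 lower genes with the smallest p catalyse 3 consecutive steps from mevalonate to isopentenyl diphosphate. Mvk, mevalonate kinase, was at 46.0, 31.0 and 15.6 CPM in WT and 11.6, 6.58 and 5.71 CPM in Mark3-KO. WT 1 was highest and WT 3 came close to the first Mark3-KO library. The means were 30.9 ± 15.2 and 7.96 ± 3.17 CPM (SD, n = 3), a log2 fold change of -1.95 (SE 0.45; edgeR adjusted p = 0.0506), and -0.71 (SE 0.17, adjusted p = 0.104) after the GC correction. Pmvk, phosphomevalonate kinase, which adds the next phosphate, was at 29.5, 27.3 and 20.6 CPM in WT and 13.3, 9.45 and 7.61 CPM in Mark3-KO. Every WT library was above every Mark3-KO library, and the gap between the nearest ones (1.55-fold) exceeded the spread within WT (1.43-fold). Across the Mark3-KO libraries Pmvk spanned 1.74-fold. Its log2 fold change came to -1.35 (SE 0.24; edgeR adjusted p = 0.0506), or -0.57 (SE 0.09, adjusted p = 0.0803) after the GC correction.

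Mvd, the decarboxylase that yields isopentenyl diphosphate, had the lowest log2 fold change of all 30 genes. It was at 31.7, 21.0 and 12.7 CPM in WT and 7.71, 4.38 and 2.03 CPM in Mark3-KO. In ratio, the Mark3-KO libraries differed among themselves by more than the WT libraries did. On the log2 scale the difference was -2.21 (SE 0.54; edgeR adjusted p = 0.0506), or -0.97 (SE 0.27, adjusted p = 0.114) after the GC correction. Hmgcs1 (ENSMUSG00000093930), the synthase that makes HMG-CoA, had the value nearest to 0 of this group. It was at 300.4, 329 and 368 CPM in WT and 334, 354 and 387 CPM in Mark3-KO, and the groups overlapped. In log2 terms Mark3-KO differed from WT by 0.11 (SE 0.11; edgeR adjusted p = 0.467), and with the GC correction it turned to -0.32 (SE 0.04, adjusted p = 0.0559), the smallest adjusted p of the 30 genes under that setting.

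The other 4 genes of these steps spanned both directions. Fdps, farnesyl diphosphate synthase, was at 138 ± 3.35 CPM (WT) and 104 ± 15.9 CPM (Mark3-KO) without overlap (log2 fold change -0.40; edgeR adjusted p = 0.0583), and at -0.10 after the GC correction. It shares 26.7% of its exon length with the predicted gene Gm43738 on the same strand, which averaged 0.436 CPM (WT) and 1.05 CPM (Mark3-KO). Ggps1, which makes the geranylgeranyl group that anchors small GTPases, was at 43.6 ± 10.2 and 63.6 ± 8.55 CPM without overlap (0.54; edgeR adjusted p = 0.0753), and at 0.11 after the correction. Both act on the same isoprenoid pool, one gene with 52.4% and the other with 43.2% GC content. Acat2, which joins acetyl-CoA units at the start of the route, was at -0.21, and Idi1, the isomerase of isopentenyl diphosphate, at 0.25. After the GC correction Idi1 turned to -0.31.

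Of the 11 genes from squalene to cholesterol, none passed at 0.05. At an edgeR adjusted p below 0.1, 3 were lower and 1 higher, beside 24% and 19.7% of all tested genes. By CPM, 5 were lower and 1 higher without overlap, beside 27.5% and 25.8% of all tested genes, and 5 overlapped. Their median log2 fold change was -0.05, or -0.14 after the GC correction, and summed levels were 881 to 996 CPM (WT) and 934 to 1041 CPM (Mark3-KO). Lss, lanosterol synthase, closes the ring. It was at 85.8, 80.6 and 73.9 CPM in WT and 61.2, 58.1 and 56.3 CPM in Mark3-KO. The groups did not overlap, and the gap between the nearest libraries (1.21-fold) was little above the WT span (1.16-fold). Levels of Lss fell in the order of libraries of the first principal component. The means were 80.1 ± 5.93 and 58.5 ± 2.49 CPM (SD, n = 3), a log2 fold change of -0.45 (SE 0.10; edgeR adjusted p = 0.0506). Lss kept -0.37 (SE 0.06, adjusted p = 0.0803) after the GC correction, at a middle GC content of 50.2%.

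Dhcr7, the reductase of the last step in one branch of the route, was at 42.9, 38.1 and 36.1 CPM in WT and 30.7, 24.99 and 23.0 CPM in Mark3-KO. No Mark3-KO library reached a WT one. Its log2 fold change came to -0.57 (SE 0.15; edgeR adjusted p = 0.0506), and -0.27 (adjusted p = 0.108) after the GC correction. Tm7sf2, a sterol C14 reductase of the nuclear and endoplasmic membranes, was the least abundant member, at 5.99, 4.85 and 4.10 CPM in WT and 2.998, 2.15 and 1.30 CPM in Mark3-KO. Its groups were apart as well, with a log2 fold change of -1.21 (SE 0.32; edgeR adjusted p = 0.0508), and -0.47 (SE 0.19, adjusted p = 0.187) after the correction. It shares 12.1% of its exon length with Vps51 on the same strand, so some of its reads may have been assigned between the 2 genes. Fdft1, squalene synthase, lay nearest to 0 of all members. It was at 80.4, 82.4 and 88.1 CPM in WT and 86.6, 85.1 and 81.6 CPM in Mark3-KO, with a log2 fold change of 0.01 (SE 0.09; edgeR adjusted p = 0.910). After the GC correction it was at 0.31 (SE 0.10, adjusted p = 0.131), the highest of the 30 genes. It shares 18.3% of its exon length with Ctsb on the opposite strand, and with a kit that does not mark strand the reads there cannot be told apart.

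The other 7 genes of this branch had log2 fold changes of -0.27 to 0.40, smaller in size than those of Lss, Dhcr7 and Tm7sf2. Msmo1, the sterol C4 methyl oxidase, was at 119 ± 15.9 CPM (WT) and 157 ± 14.8 CPM (Mark3-KO) without overlap (0.40; edgeR adjusted p = 0.0622), and at 0.00 after the GC correction. Cyp51, the lanosterol demethylase, was at 0.26, Sc5d, a desaturase, at 0.27, and Nsdhl, which acts after Msmo1 at C4, at 0.20, each with overlapping groups. Under the GC correction these 3 stood at 0.01, -0.14 and -0.11. Hsd17b7, the keto-reductase of the same C4 complex, was at 61.2 ± 2.29 and 53.8 ± 1.41 CPM without overlap (-0.19, SE 0.09; edgeR adjusted p = 0.145). It was the one GC-poor gene (46.3%) below 0, and with the GC correction it was at -0.44 (SE 0.07, adjusted p = 0.0774), beyond its uncorrected value. Ebp, a sterol isomerase, was at -0.27 and -0.28 before and after the correction, and Sqle, the epoxidase, at -0.05 and -0.11.

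None of the 5 genes of the SREBP system passed at 0.05. The factors and their escort, 3 of the 5, were lower without overlap and at an edgeR adjusted p below 0.1. By both measures 1 gene was higher, and 1 overlapped. Of all tested genes, 27.5% were lower and 25.8% higher without overlap, and 24% and 19.7% at that adjusted p. The median log2 fold change of the 5 genes was -1.29, and -0.24 after the GC correction, with sums of 362 to 544 CPM (WT) and 271 to 311 CPM (Mark3-KO). Srebf2 (ENSMUSG00000022463; chr15:82147181-82205379, plus strand), the factor best known for cholesterol genes, was at 212, 157 and 108 CPM in WT and 83.9, 58.4 and 53.2 CPM in Mark3-KO. WT 3 lay nearer to Mark3-KO 1 than to WT 2. The means were 159 ± 52.0 and 65.2 ± 16.4 CPM (SD, n = 3), a log2 fold change of -1.29 (SE 0.28; edgeR adjusted p = 0.0506), and -0.24 (SE 0.06, adjusted p = 0.109) after the GC correction.

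Srebf1 (ENSMUSG00000020538), the factor best known for fatty acid genes and the gene with the GC-rich stretch shown above, was at 109, 64.1 and 37.3 CPM in WT and 27.6, 16.2 and 12.6 CPM in Mark3-KO. The 3 WT libraries differed among themselves by more than WT 3 differed from Mark3-KO 1. On the log2 scale the difference was -1.90 (SE 0.45; edgeR adjusted p = 0.0506), and -0.56 (SE 0.15, adjusted p = 0.110) after the correction. Scap (ENSMUSG00000032485; chr9:110333288-110384950, plus strand), their escort, was at 76.1, 53.2 and 35.4 CPM in WT and 27.9, 19.1 and 16.3 CPM in Mark3-KO. The order of the 6 libraries was that of Srebf1 and Srebf2, and Scap shares 13.2% of its exon length with the annotated transcript 5830462I19Rik on the opposite strand. In log2 terms Mark3-KO differed from WT by -1.38 (SE 0.32; edgeR adjusted p = 0.0506), and -0.60 (SE 0.15, adjusted p = 0.105) after the correction.

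The Insig genes, whose products retain Scap, had log2 fold changes above 0. Insig1 was at 103, 111 and 125 CPM in WT and 114, 119 and 123 CPM in Mark3-KO, with overlapping groups and a log2 fold change of 0.07 (SE 0.10; edgeR adjusted p = 0.616). Insig1 is itself a well-known SREBP target. It turned to -0.12 with the GC correction. Insig2 was at 48.1 ± 7.63 and 63.9 ± 4.78 CPM without overlap (0.41, SE 0.14; edgeR adjusted p = 0.0681), and at 0.19 (adjusted p = 0.245) after the correction. The GC content is 47.1% for Insig1 and 46.6% for Insig2, against 59.4% for Srebf1, 57.1% for Srebf2 and 55.3% for Scap.

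**Figure D4:**
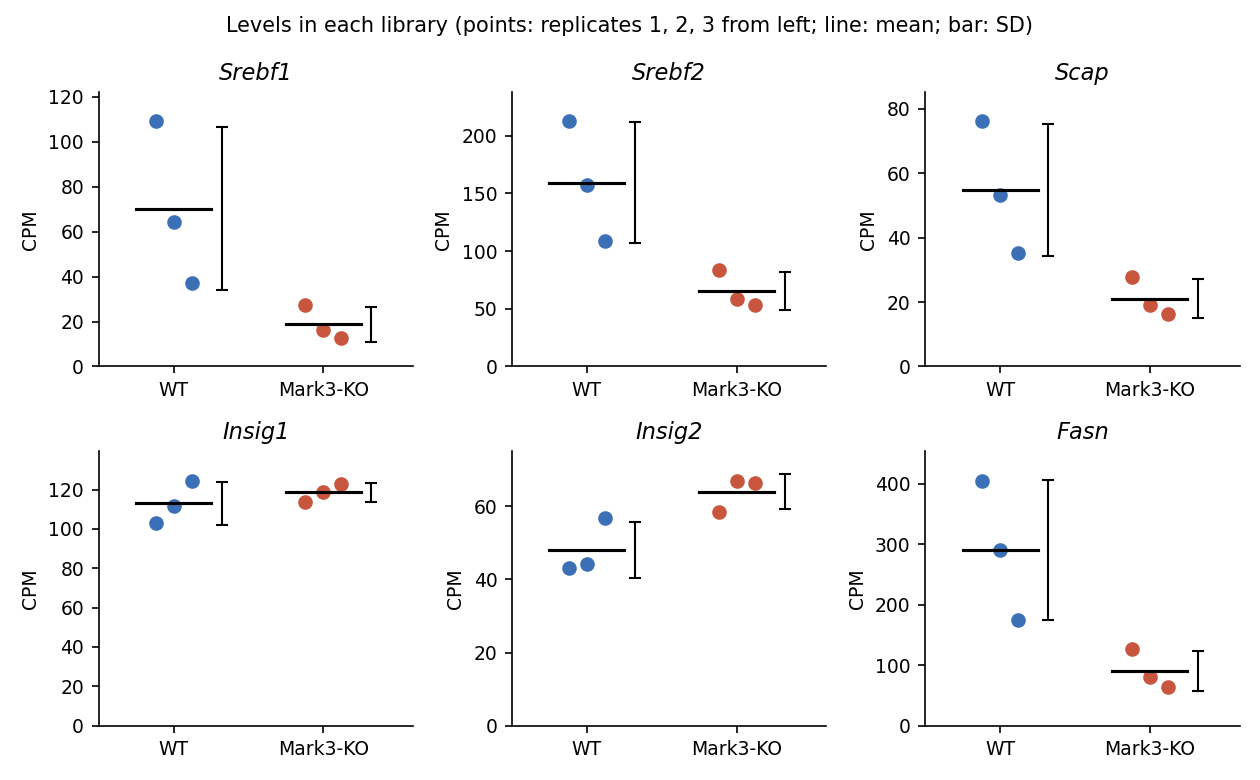
Level in CPM (y axis, from 0) of 5 SREBP system genes and Fasn in the 3 WT and 3 Mark3-KO libraries; points are replicates 1, 2 and 3 from left, lines are means and bars SD. Srebf1, Srebf2, Scap and Fasn are highest in WT 1 and lowest in Mark3-KO 3, while Insig1 lies between 103 and 125 CPM in all libraries.

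Stard4, a soluble protein that carries sterol between membranes, was the one member of its role. It was at 51.8, 55.7 and 61.7 CPM in WT and 64.0, 71.3 and 75.9 CPM in Mark3-KO. The groups did not overlap, but WT 3 and Mark3-KO 1 nearly met. Its log2 fold change came to 0.32 (SE 0.11; edgeR adjusted p = 0.0755), and -0.00 (adjusted p = 0.973) after the GC correction.

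Of the 5 fatty acid genes, none passed at 0.05, 2 were lower at an edgeR adjusted p below 0.1 and without overlap, and 3 overlapped. Of all tested genes, 24% were lower at that adjusted p and 27.5% were lower without overlap. The median log2 fold change of the 5 genes was -0.03, or 0.04 after the GC correction, and sums were 1991 to 2208 CPM (WT) and 1755 to 1844 CPM (Mark3-KO). Fasn (ENSMUSG00000025153; chr11:120805846-120824547, minus strand), the multi-domain synthase that makes palmitate, was at 405, 291 and 174 CPM in WT and 127, 80.1 and 63.1 CPM in Mark3-KO. It followed the order of libraries seen for Srebf1. The means were 290.1 ± 115 and 90.2 ± 33.3 CPM (SD, n = 3), a log2 fold change of -1.69 (SE 0.37; edgeR adjusted p = 0.0506), and -0.49 (SE 0.10, adjusted p = 0.102) after the GC correction. Acly, which cuts citrate to supply cytosolic acetyl-CoA to both fatty acid and sterol synthesis, was at 341, 316 and 282 CPM in WT and 239.8, 201 and 183 CPM in Mark3-KO. All WT libraries were above all Mark3-KO libraries. On the log2 scale the difference was -0.59 (SE 0.13; edgeR adjusted p = 0.0506), and -0.29 (SE 0.05, adjusted p = 0.0972) after the correction.

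The genes that lengthen and desaturate the palmitate overlapped between the groups. Elovl6, the elongase, was at 65.7, 72.2 and 98.0 CPM in WT and 95.2, 79.1 and 121 CPM in Mark3-KO, with overlap and a log2 fold change of 0.32 (SE 0.21; edgeR adjusted p = 0.265). Scd2, a stearoyl-CoA desaturase, was at 1189.4, 1176.2 and 1201.2 CPM in WT and 1108.8, 1159.6 and 1231.7 CPM in Mark3-KO. The Mark3-KO libraries lay on both sides of the WT ones, and the log2 fold change came to -0.03 (SE 0.09; edgeR adjusted p = 0.822), or 0.04 after the GC correction. Scd1, its paralog, was at 223 ± 14.8 and 232 ± 15.6 CPM with overlap (0.06, SE 0.10; edgeR adjusted p = 0.678). After the GC correction Scd1 was at 0.04 and Elovl6 at 0.06.

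Per kilobase of exon, with all annotated exons of a gene merged, the members differed widely in level. That length can exceed a single transcript, for Fdps 4208 bases against 1382 for the transcript with the longest coding sequence. The order of the members therefore depends on the annotation. Scd2 was the highest, at 218 CPM per kb in WT and 214 in Mark3-KO, followed by Hmgcs1 (72.4 and 78.1), Acly (59.3 and 39.4), Cyp51 (54.0 and 64.6) and Scd1 (45.7 and 47.5). Tm7sf2 was the lowest, at 1.13 and 0.488 CPM per kb. On this scale Srebf2 (22.2 and 9.07) was above Srebf1 (12.5 and 3.33) in both groups, and Insig1 (36.5 and 38.3) above Insig2 (13.9 and 18.4). The balance between paralogs, as ratios of CPM within a library, also differed between libraries. Srebf2 over Srebf1 was 1.95, 2.46 and 2.90 in the WT libraries, against 3.04, 3.60 and 4.23 in Mark3-KO. Every Mark3-KO library had a higher ratio, but WT 3 and Mark3-KO 1 lay closer together than any pair of WT libraries. The ratio rose in the order of libraries of the first principal component, within the groups as well as between them. Srebf1 has the higher GC content, 59.4% against 57.1% for Srebf2. Insig1 over Insig2 was 2.39, 2.51 and 2.19 in the WT libraries, against 1.95, 1.77 and 1.85 in Mark3-KO, lower in every Mark3-KO library. Scd2 over Scd1 was 5.75, 5.16 and 5.10 in the WT libraries, against 5.15, 4.92 and 5.01 in Mark3-KO, with overlapping groups. With 3 libraries against 3, an exact permutation test cannot give a p below 0.1, and no test was made of these ratios. They were not made over other gene pairs, and nothing particular to these paralogs is read from them.

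Other sequence features of the members followed the fold change less closely than the GC content of the whole transcript. Across the 30 genes, Pearson's r with the log2 fold change was -0.83 for the GC content of the coding sequence, -0.71 for that of the 3′ UTR and -0.27 for that of the 5′ UTR. Over all tested genes with such a region the values were -0.68, -0.63 and -0.17. For promoter GC content it was -0.03 over the 24 members with a promoter entry, and -0.12 over all. Coding length, on a log10 scale, gave -0.54 in the members and 0.00 over all tested genes, and the long coding sequence of Fasn is among the GC-rich ones. All these points share the same 6 libraries and the features overlap in sequence, so they are descriptions with no test.

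Promoters were searched in RefSeq (GRCm38.p6) windows from 250 bases before to 50 bases after each start site. Windows were found for 24 of the 30 genes (32 promoters). Sqle, Fdps, Fdft1, Stard4, Scd1 and Scd2 had no entry, so the motif counts do not cover them. The motif TCACNCCAC, a form of the sterol regulatory element, was sought on both strands and was present in 1 of the 32 promoters (3.13%), that of Hmgcs1, and in 1.24% of all 32851 promoters. The Hmgcs1 stretch that holds it (chr13:119690169-119690268, plus strand) is shown because this is the one match, with the motif and a CCAAT box (here on the reverse strand) in capitals; the element begins 137 bases before the start site.
Hmgcs1 promoter: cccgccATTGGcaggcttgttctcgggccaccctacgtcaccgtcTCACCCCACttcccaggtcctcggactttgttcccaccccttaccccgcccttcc
CCAAT, the NF-Y motif, was in 22 of 32 member promoters (68.8%) and in 37.4% of all promoters. GGGCGG, the Sp1 motif, was in 24 of 32 (75.0%) and in 35.7% of all. Hmgcs1, with both the element and the CCAAT box, had a log2 fold change of 0.11, and Srebf2 was at -1.29. After the GC correction they were at -0.32 and -0.24, and a link between the 2 genes was not tested. A match is a description of letters in these windows and not evidence of a bound factor.

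Genes next to the pathway that are not members were counted in 4 lists, and none of them passed at 0.05 (0.216% of all genes did). At an adjusted p below 0.1, where 24% of all genes were lower and 19.7% higher, 3 of 7 genes for other sterol steps and electron donors were lower and 1 was higher. Por, the electron donor of Cyp51 and Sqle, was at 44.2 CPM (WT) and 16.6 CPM (Mark3-KO), with a log2 fold change of -1.41, or -0.35 after the GC correction. Of 10 genes for SREBP processing and turnover, 4 were lower and 3 higher. Mbtps1, the site-1 protease that cuts SREBP in the Golgi, was at 273 and 207 CPM (-0.40 and -0.20), and Rnf139, a ubiquitin ligase of the endoplasmic reticulum, at 53.9 and 84.5 CPM (0.65 and 0.09).

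Of 19 tested genes for other fatty acid steps (20 listed, Thrsp not tested), 8 were lower and 3 higher at an edgeR adjusted p below 0.1. The shares of all tested genes there were 24% lower and 19.7% higher. Slc25a1, the mitochondrial citrate carrier that feeds Acly, was at 58.4 and 36.3 CPM with a log2 fold change of -0.69, and it turned to 0.57 after the GC correction. Acacb, an acetyl-CoA carboxylase, was at 4.76 and 1.85 CPM (-1.36, or -0.34 after the correction). Of 13 genes for sterol efflux, storage and oxysterols, 4 were lower and 3 higher. Nr1h2, the liver X receptor beta, was at 23.9 and 5.22 CPM (-2.19 and -0.66), and Stard3, an endosomal sterol transporter, at 20.1 and 10.2 CPM (-0.98 and 0.01). The medians of the 4 lists, in the order given, were -0.09, 0.14, -0.09 and -0.40, and -0.12, -0.02, -0.05 and -0.05 after the GC correction. The 7 genes named from these lists had edgeR adjusted p-values of 0.0506 to 0.0508, and those that were lower have the higher GC content, as among the members.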

How the data were processed

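The authors deposited whole-number counts in 1 table of 51912 Ensembl gene identifiers and 6 columns named for the samples; 51719 identifiers matched GENCODE M21 (GRCm38) and 18804 had a total count of 0. The genome was GRCm38 and the tools were HISAT2 2.0.5, StringTie, DESeq2 and FastQC, per the submitters' processing notes. In what order and with which settings and annotation they ran, and how reads shared between genes were handled, is not given in the sources used here. Per the labels' protocols, libraries were made from Trizol RNA with the TruSeq RNA v2 kit, which does not mark strand.

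Counts were tested with edgeR 4.0.16 under R 4.3.3 (filterByExpr, TMM, glmQLFit and glmQLFTest without covariates, Benjamini-Hochberg over 19017 genes, threshold 0.05). CPM levels use TMM-scaled library sizes; the SE is the size of the log2 fold change divided by the root of F. GC content is that of all annotated transcripts of a gene (52 tested genes had none). The GC correction was an offset from a natural spline of 6 degrees of freedom fitted per library to log2 CPM (prior count 2) relative to each gene's mean. The test was checked on counts simulated without any dependence on GC content, where 98 to 100% of genes changed 2-fold or 4-fold passed. That check does not cover the order of libraries seen in these data.

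The members and lists were chosen with earlier results of these data known. Values in every library are given, in each role, for the 3 genes with the smallest p and the 1 nearest to 0; other members are given by means or fold changes, and at most 2 genes per neighbouring list are named, by smallest p (1 that the rule takes is not reported here). Alternatives were DESeq2 1.42.0 size factors and Wald test, library size alone, limma-voom (limma 3.58.1), other filters on low counts, the GC correction, the replicate number as a block, an adjusted p of 0.1, and leaving out each library. The same alternatives for Mark3 were added after seeing the data.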

Additional observations from a re-analysis of the deposited data

How the results depend on the processing

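The number of all genes past the threshold was 41 and became 4510 with library size alone, 6915 with DESeq2's Wald test, 27 with limma-voom, 5266 with a filter of 1 CPM in 3 libraries, 77 with the GC correction, 8317 at an adjusted p of 0.1, and 0 to 6460 when 1 library was left out (0 in edgeR without WT replicate 2, where 5929 genes had an unadjusted p below 0.05). The number of members, 0, became 10 with library size alone, 15 with the Wald test, 13 with the filter of 1 CPM, 16 at an adjusted p of 0.1, and 0 to 14 when 1 library was left out. DESeq2 size factors, limma-voom, no filter on low counts and the GC correction left it at 0. Adjusted p-values lay close to the threshold, with 4707 genes below 0.055. The members' median of -0.12 became -0.00884 with library size alone, which shifts the median of all genes to 0.13, -0.0935 with the filter of 1 CPM, -0.19 with the GC correction, and -0.16 to -0.0926 with 1 library left out. The GC correction reversed Hmgcs1 (-0.32), Idi1 (-0.31), Insig1 (-0.12), Sc5d (-0.14), Nsdhl (-0.11), Stard4 (-0.00376) and Scd2 (0.0430). Library size alone reversed Sqle (0.0567) and Scd2 (0.0854). Leaving out 1 library at a time gave log2 fold changes on both sides of 0 for Sqle (-0.142 to 0.00128), Fdft1 (-0.0195 to 0.0416), Scd1 (-0.00264 to 0.105) and Scd2 (-0.0728 to 0.0055). The cause of these moves was not tested.

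The replicate numbers were not shown to pair the libraries: deviations from the group means correlated at 0.33, -0.03 and 0.29 for replicates 1, 2 and 3, and WT 2 correlated best with Mark3-KO 1 (0.06). With the replicate number as a block, 8487 genes (44.6%) passed, 3783 higher and 4704 lower, as did 20 members (8 higher, 12 lower). With the GC correction and the replicate block together, 1003 genes (5.27%) passed, 338 higher and 665 lower, as did 8 members, all lower. The members' median was then -0.19, and Hmgcs1 (-0.32), Idi1 (-0.32), Insig1 (-0.12), Sc5d (-0.14), Nsdhl (-0.11), Stard4 (-0.00410) and Scd2 (0.0395) reversed. The lowest member count in a library was 80, and with 3 libraries a group the spread between libraries limits the precision.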
